A study of Mus musculus with 7 samples.

Results

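The report covers the 10 immunoglobulin genes *Ighm*, *Ighd*, *Igha*, *Ighg1*, *Ighg2b*, *Ighg2c*, *Ighg3*, *Igkc*, *Iglc2* and *Jchain*, which were taken by symbol from the 32285 genes counted in 7 droplet single-cell RNA libraries of mouse liver. They were read in B-like cells, in other cells whose cluster could be named and in low-UMI barcodes. The last rank far down by number of UMIs (unique molecular identifiers, 1 per captured RNA molecule). The labels give every library the same tissue and the same disease state, a murine model of hepatoblastoma, and no genotype, age or treatment. In the study's text, NEJ723, NEJ709, NEJ687 and NEJ634 are tumors of ABC-Myc mice, in which Cre under the albumin promoter turns on human MYC in hepatocytes, and healthy livers of mice without the Cre or the MYC allele were its controls. The description of the library titled NEJ709 carries the name NEJ634, so the identity of these 2 libraries is less sure than that of the others, and they are named here by title. Since the labels give no groups, the libraries were not pooled into groups, levels are given per library, counts and shares of cells summed over all 7 libraries are said to be so and carry unequal numbers of cells from each, and no test between groups was made. The tissue was dissociated with collagenase, and a cell type that survives this poorly cannot be told apart from one that is rare.

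An antibody is made of heavy and light chains, and each chain joins a variable part, assembled from gene segments in the developing B cell, to a constant part encoded by the genes described here. Naive B cells use the *Ighm* and *Ighd* constant regions for IgM and IgD; after activation a B cell can switch its heavy chain to an IgG subclass (*Ighg1*, *Ighg2b*, *Ighg2c*, *Ighg3*) or to IgA (*Igha*), and a B cell that becomes a plasma cell makes very large amounts of the same messages together with *Jchain*, the joining chain of IgA and of secreted IgM. Every light chain is either kappa, with the constant region *Igkc*, or lambda, for which mice have *Iglc1*, *Iglc2* and *Iglc3*. The liver clears IgA complexes, and before birth it is a site of B cell formation.

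The heavy chain genes lie together on chromosome 12, *Igkc* on chromosome 6, the lambda genes on chromosome 16 and *Jchain* on chromosome 5. Read 3′ ends cannot always separate members that are near copies of each other, so the last 120 coding bases of the lambda genes and of the pair *Ighg2b* and *Ighg2c* are shown, 5′ to 3′ as transcribed, from the GENCODE M21 transcripts of GRCm38. The build of the deposited counts is not given in the sources used here, and the gene identifiers of these genes match those of the files. Capitals mark the positions at which the genes of a set differ. The lambda stretches lie on the minus strand at chr16:19061755-19061874 (*Iglc1*), chr16:19198539-19198658 (*Iglc2*) and chr16:19065368-19065487 (*Iglc3*), and the heavy chain stretches on the minus strand at chr12:113306392-113306511 (*Ighg2b*) and chr12:113287392-113287511 (*Ighg2c*).
Iglc1: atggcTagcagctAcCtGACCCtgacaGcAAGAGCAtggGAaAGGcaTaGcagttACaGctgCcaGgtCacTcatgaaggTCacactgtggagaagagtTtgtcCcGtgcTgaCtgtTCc
Iglc2: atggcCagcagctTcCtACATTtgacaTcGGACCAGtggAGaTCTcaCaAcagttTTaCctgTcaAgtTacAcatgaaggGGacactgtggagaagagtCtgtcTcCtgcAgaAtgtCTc
Iglc3: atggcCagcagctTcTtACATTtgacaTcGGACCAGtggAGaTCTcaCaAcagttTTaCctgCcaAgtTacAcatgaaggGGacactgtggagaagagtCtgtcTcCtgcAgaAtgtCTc
Ighg2b: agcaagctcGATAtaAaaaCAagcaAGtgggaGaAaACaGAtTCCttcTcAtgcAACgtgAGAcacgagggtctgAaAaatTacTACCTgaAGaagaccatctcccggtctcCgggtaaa
Ighg2c: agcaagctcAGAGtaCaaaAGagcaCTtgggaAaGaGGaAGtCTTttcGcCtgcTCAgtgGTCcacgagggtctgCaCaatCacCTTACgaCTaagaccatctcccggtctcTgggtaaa

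*Iglc3* differed from *Iglc2* at 2 of these 120 positions and *Iglc1* at 38, and *Ighg2c* differed from *Ighg2b* at 37. Over the whole coding parts, 96.2% of aligned bases were the same in *Iglc2* and *Iglc3*, with a longest shared run of 79 bases, against 73.8% and 19 bases for *Iglc2* and *Iglc1*. For *Ighg2b* and *Ighg2c* the share was 85.9%, with a longest run of 78 bases. The *Iglc2* counts are therefore given as uncertain against *Iglc3*, and those of *Ighg2b* against *Ighg2c*, since how the submitters' counting divided such reads was not tested. Of 399 windows of 60 bases in *Iglc2*, 23 (5.76%) were shared with *Iglc3*. Of 1055 such windows in *Ighg2b*, 36 (3.41%) were shared with *Ighg2c*.

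Totals ran from 40214395 to 132485391 UMIs per library, and 72669 cells were analysed after calling, quality filters and removal of the highest doublet scores. Cells were clustered without any immunoglobulin gene, and 1 cluster of 3234 cells was B-like, led by *Ms4a1*, *Cd79a*, *Ebf1* and *Fcmr*. It held 59 cells of NEJ634, 547 of NEJ638, 54 of NEJ709, 517 of NEJ723, 768 of NEJ654, 1144 of NEJ677 and 145 of NEJ687, with median depths of 1277 to 3323 UMIs per cell, so the values of NEJ634 and NEJ709 rest on few cells. Clusters without a name held 28896 of the 72669 cells, 93.2% of those of NEJ709 and 22.87% to 33.35% in the other libraries. These unnamed cells are outside the pool of other named cells, also called other cells below. Low-UMI barcodes were ranks 45000 to 90000 by UMI count in each library, and stand here for RNA outside cells; in NEJ634 they held 210 to 952 UMIs each, against at most 460 in any other library. Levels are CPM, UMIs per 1000000 UMIs of the summed barcodes; each molecule was counted at its 3′ end, so no length scaling was made. Exact 95% intervals (Poisson for levels, Clopper-Pearson for shares) cover counting error only.

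Constant region RNA lay mostly in B-like cells. The 10 genes held 143729 UMIs in the analysed cells, of which 79.0% were in B-like cells. By library that share was 15.4% in NEJ709, 37.3% in NEJ634, 84.5% in NEJ723, 86.0% in NEJ638, 93.3% in NEJ687 and 95.4% in both NEJ654 and NEJ677. The 2 low libraries are those with the fewest B-like cells. In NEJ709 the 2 most abundant members, *Ighm* and *Igkc*, were mostly in unnamed cells.

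Of the 70 pairs of a member and a library, 39 reached 10 CPM in B-like cells or in low-UMI barcodes, and 38 of these 39 were at least 10 times higher in B-like cells, a gene without UMIs in the lower pool being set against a floor of 3 UMIs; 5.15% of all gene and library pairs of at least 10 CPM did so. Against the other named cells, 39 of 41 pairs were at least 10 times higher in B-like cells, where the share over all genes was 2.04%. *Ighm*, *Ighd*, *Igkc* and *Iglc2* passed both limits in all 7 libraries. *Ighg3* in NEJ634 passed both on 3 UMIs. The pairs that did not pass were *Ighg2b* in NEJ687 against low-UMI barcodes, and *Ighg2b* and *Ighg2c* in NEJ634 against other cells. Without cells in which the 10 genes took at least 10% of UMIs, described further on and left out after the data were seen, the counts were 32 of 36 and 35 of 37. The limit was one of size, with no test, and 29 to 40 and 31 to 41 pairs passed under other settings of calling, filters, naming, totals and limits. The number of pairs that reached 10 CPM changed too. Against low-UMI barcodes, 35 of 43 passed where these were barcodes of 10 to 100 UMIs, and 29 of 33 at clustering resolution 2. With B-like cells set by 2 of *Cd79a*, *Cd79b* and *Ms4a1* it was 34 of 38. Against other cells, 33 of 39 passed with every barcode over 500 UMIs.

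**Figure D1:**
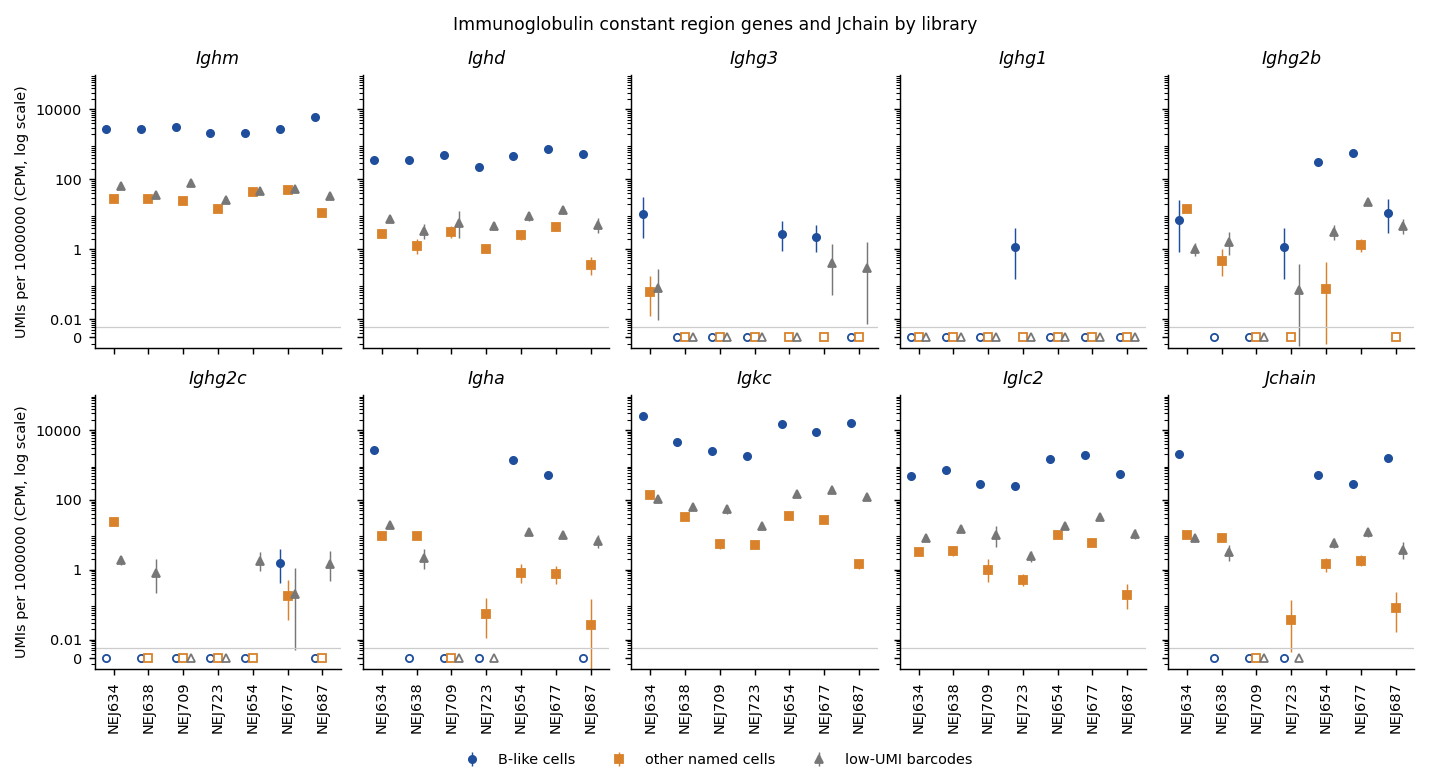
Level of each of the 10 genes by library (CPM, log scale with 0 drawn below the line) in B-like cells (blue circles), other named cells (orange squares) and low-UMI barcodes (grey triangles), with exact 95% Poisson intervals and open symbols for 0 UMIs. *Ighm*, *Ighd*, *Igkc* and *Iglc2* stand above both other pools in all 7 libraries, while *Igha*, *Ighg2b* and *Jchain* do so in some, and *Ighg1*, *Ighg2c* and *Ighg3* were at 10.5 CPM or less in B-like cells.

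*Ighm*, the constant region of IgM, was the most even member. Its level in B-like cells was 2132 CPM in NEJ723, 2182 in NEJ654, 2677 in NEJ677, 2824 in NEJ638, 2839 in NEJ634, 3083 in NEJ709 and 5992 in NEJ687. NEJ687 stood apart through 1 cell: without cells of at least 10% member UMIs its level was 2449 CPM (2290 to 2615), and the 7 libraries ran from 2132 to 3083 CPM. With all cells, NEJ723 and NEJ654 did not differ beyond counting error, and each of NEJ677, NEJ638, NEJ634 and NEJ709 overlapped with its neighbour in that order. Outside B-like cells *Ighm* ran from 10.9 to 51.3 CPM over the other named cells and from 26.3 to 79.3 CPM in low-UMI barcodes, so the pools did not overlap.

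*Ighd*, the constant region of IgD that naive B cells make from the same transcript by splicing, was lower than *Ighm* in every library, at 228 CPM in NEJ723, 351 in NEJ634, 354 in NEJ638, 468 in NEJ654, 511 in NEJ709, 535 in NEJ687 and 720 in NEJ677. Per *Ighm* UMI, B-like cells held 0.107 *Ighd* UMIs in NEJ723, 0.123 in NEJ634, 0.125 in NEJ638, 0.166 in NEJ709, 0.214 in NEJ654 and 0.269 in NEJ677. In NEJ687 the ratio was 0.0892 with all B-like cells and 0.227 without its richest cell. In other named cells the highest *Ighd* level was 4.27 CPM, in NEJ677, and in low-UMI barcodes it was 13.6 CPM in the same library.

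*Igkc*, the kappa constant region, was the most abundant member in B-like cells of 5 libraries and was below *Ighm* in NEJ709 and NEJ723. It was 1863 CPM in B-like cells of NEJ723, 2498 in NEJ709, 4409 in NEJ638, 8600 in NEJ677, 14980 in NEJ654, 16410 in NEJ687 and 25080 in NEJ634, and no pair of neighbours in that order overlapped in counting error. Without cells of at least 10% member UMIs the order changed, with NEJ723 (1863 CPM) and NEJ709 (2498) still lowest, then NEJ634 (3507), NEJ638 (4409), NEJ687 (5175), NEJ677 (6442) and NEJ654 (9399). In NEJ634, 1 cell held 37.3% of the *Igkc* UMIs of all analysed cells, and in NEJ687 1 cell held 68.8%.

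*Iglc2*, the lambda constant region among the members, was lowest in NEJ723 at 244 CPM, then 290 in NEJ709, 480 in NEJ634, 540 in NEJ687, 697 in NEJ638, 1508 in NEJ654 and 1878 in NEJ677. NEJ654 and NEJ677 stood above all others, also without the richest cells (1477 and 1874 CPM), when the same libraries were highest for *Igkc*. The other lambda genes, which are not members, ran from 226 to 939 CPM (*Iglc1*) and from 118 to 1327 CPM (*Iglc3*) in B-like cells.

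The switched heavy chains were rare and uneven. *Igha* had no UMI in B-like cells of 4 libraries, and reached 510 CPM in NEJ677, 1345 in NEJ654 and 2618 in NEJ634. The upper limit of the *Igha* level where no UMI was seen was 2.09 CPM in NEJ723, 4.41 in NEJ638, 9.76 in NEJ687 and 18.1 in NEJ709. All 747 *Igha* UMIs of B-like cells of NEJ634 were in 1 cell. Without the cells of at least 10% member UMIs, *Igha* was 440 CPM in NEJ654, 214 in NEJ677 and 0 in the other 5 libraries.

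*Ighg2b*, which encodes an IgG subclass, was 310 CPM in NEJ654 and 553 CPM in NEJ677 and at most 10.6 CPM elsewhere in B-like cells. In NEJ654 1 cell held 97.7% of its UMIs. In NEJ677 the highest cell held 64.3%, and without cells of at least 10% member UMIs the level was 17.9 CPM in NEJ677 and under 10 CPM in NEJ654. *Ighg3* had 3 UMIs in B-like cells of NEJ634, 5 in NEJ654 and 6 in NEJ677. In B-like cells *Ighg1* had 2 UMIs, both in 1 cell of NEJ723, and *Ighg2c* had 4, in NEJ677. This low *Ighg2c* level of NEJ677 depends on the doublet filter: over all its analysed cells it was 0.251 CPM, and 15.2 CPM with no doublet removal. Over all analysed cells *Ighg1* had 1 further UMI, in NEJ677, and *Ighg2c* was mostly in neutrophil-like cells of NEJ634, described further on. *Ighe*, the constant region of IgE, had no UMI in any pool of any library.

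*Jchain* followed *Igha* in part. It had no UMI in B-like cells of NEJ638, NEJ709 and NEJ723, and was 295 CPM in NEJ677, 515 in NEJ654, 1628 in NEJ687 and 2113 in NEJ634. One cell held 614 of its UMIs in NEJ687, where B-like cells had 615, and 1 cell held all 603 of B-like cells in NEJ634. It was in 14 of 768 B-like cells of NEJ654, 9 of 1144 of NEJ677, 2 of 145 of NEJ687 and 1 of 59 of NEJ634. Without the cells of at least 10% member UMIs it remained at 134 CPM in NEJ654, 106 in NEJ677 and 2.75 in NEJ687. *Jchain* was also seen outside B-like cells, with 74 UMIs in endothelial-like cells of NEJ638 (10.2 to 16.3 CPM), where B-like cells had none, and at 3.76 and 2.98 CPM in those of NEJ654 and NEJ677. In low-UMI barcodes *Jchain* had a median of 3.77 CPM over the 7 libraries. Its highest low-UMI level was 11.7 CPM, in NEJ677 and not in NEJ638. The part of such RNA in the endothelial-like values was not tested.

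At the level of single cells, most B-like cells held *Ighm* and *Igkc*. With every cell thinned to 500 UMIs, *Ighm* was in 87 of 145 B-like cells of NEJ687, the lowest share, and in 75.9% of those of NEJ709, the highest, against 0% (NEJ709) to 5.28% (NEJ677) of T/NK-like cells, which are not B cells. Unthinned, NEJ677 had 95.1% of B-like and 26.2% of T/NK-like cells with an *Ighm* UMI, and their median depths were 2104 and 3006 UMIs. *Igkc* was in 54.4% (NEJ723) to 89.5% (NEJ654) of B-like cells thinned to 500 UMIs and in at most 1.04% of T/NK-like cells (NEJ654). Unthinned, NEJ723 had *Igkc* in 78.3% of B-like cells and 1.58% of T/NK-like cells, whose median depths were 2498 and 4823 UMIs. In NEJ677, the library with the highest *Iglc2* level, *Iglc2* was in 41.6% of thinned B-like cells and 0.246% of T/NK-like cells, and *Ighd* in 31.2% and 0%. Unthinned, these shares were 78.4% and 0.737% for *Iglc2* and 71.4% and 1.72% for *Ighd*.

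A B cell is expected to use 1 light chain, so each B-like cell with at least 10 light chain UMIs (*Igkc*, *Iglc1*, *Iglc2*, *Iglc3*) was called kappa or lambda where 80% of them were of that type. Over all 7 libraries, of 2121 such cells 989 were kappa, 134 were lambda and 998 (47.1%) were neither. Among cells with a call the lambda share was 11.9% (10.1 to 14.0). It was 17.6% in NEJ677 (14.1 to 21.4), 10.9% in NEJ654 (7.80 to 14.7), and between 5.13% and 6.45% in NEJ634, NEJ638, NEJ723 and NEJ687. NEJ709 had 0 lambda cells of 14, which allows a share of up to 23.2%. The share depended on the limits, being 14.4% with a simple majority, an alternative added after the data were seen, and 29.9% where 95% of at least 20 UMIs were asked for, which left 177 cells with a call.

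Summed over all libraries, the cells with neither call held 8964 lambda and 15623 kappa UMIs, where 115 and 366 would be present if all their UMIs had the composition of their library's low-UMI barcodes. Kappa cells held 3107 lambda UMIs against 103 by the same reckoning, and lambda cells held 648 kappa UMIs against 53.9. Over all libraries, a lambda variable segment (Iglv) was seen in 29.1% of lambda cells, in 3.74% of kappa cells and in 5.31% of the others. A kappa variable segment (Igkv) was seen in 12.7% of lambda cells, 33.5% of kappa cells and 32.5% of the others. Of the 39 lambda cells with Iglv, 23 were in NEJ677 and 13 in NEJ654. In NEJ687, none of 4 lambda cells had Iglv and 2 had Igkv, and in NEJ634 neither of the 2 lambda cells had Iglv. The source of the mixed counts was not tested.

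**Figure D2:**
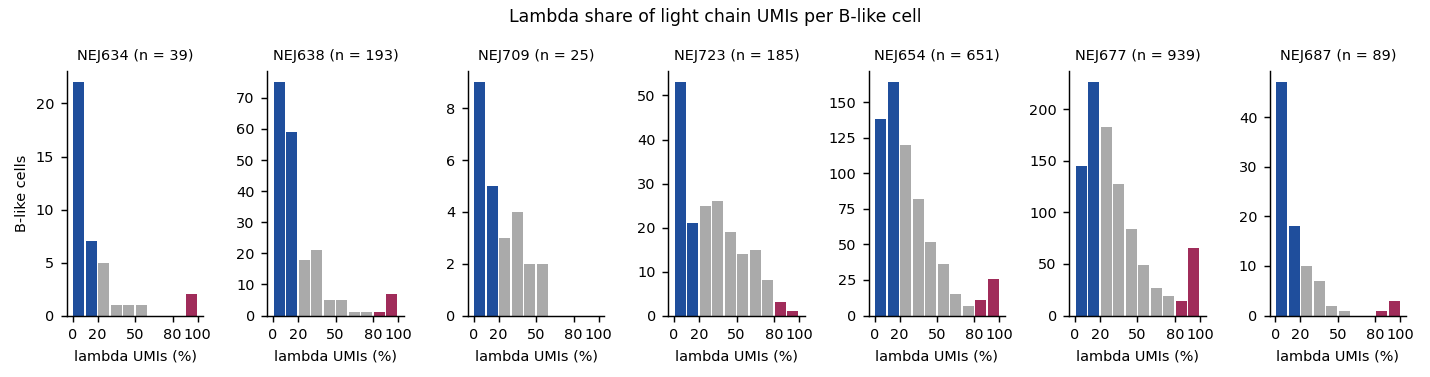
Number of B-like cells by the lambda share of their light chain UMIs (%, in steps of 10), 1 panel per library with the number of cells of at least 10 light chain UMIs. Blue bars were called kappa, dark red bars lambda and grey bars neither; a separate lambda peak at 90 to 100% is visible in NEJ677, where 79 cells were lambda, and in NEJ654, where 37 were.

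Within the 134 lambda cells of all libraries, *Iglc2* held 2337 UMIs, *Iglc3* 2044 and *Iglc1* 1795. *Iglc1* made up 80% of the lambda UMIs in 38 cells, *Iglc2* in 13 and *Iglc3* in 4, while *Iglc2* and *Iglc3* occurred together in 73 of the cells. Counted together, the near copies *Iglc2* and *Iglc3* made up 80% in 33 cells. These sums rest on few cells: of the 1869 *Iglc3* UMIs of NEJ677, 1 cell held 1229, and of its 1826 *Iglc2* UMIs 1 cell held 597. The median lambda cell held 11 UMIs of *Iglc1*, 6 of *Iglc2* and 1 of *Iglc3* in NEJ677, and 17, 4 and 1 in NEJ654.

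Heavy chains gave a clearer division. Of 2178 B-like cells of all 7 libraries with at least 5 heavy chain UMIs, 2156 were unswitched (at least 80% *Ighm* and *Ighd*), 20 were switched (at least 80% of 1 switched class) and 2 were neither. The switched share was 0.919% (0.562 to 1.42). The 20 cells were 14 *Igha* and 6 *Ighg2b* cells, 10 in NEJ677, 9 in NEJ654 and 1 in NEJ634. No switched cell was seen among 260 cells of NEJ638, 46 of NEJ709, 397 of NEJ723 and 102 of NEJ687, which allows shares of up to 1.41%, 7.71%, 0.925% and 3.59%. Without cells of at least 10% member UMIs the share was 0.508%, and with 95% of at least 10 heavy chain UMIs asked for it was 2.23%.

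Genes of the immature B cell divided the B-like cells further. *Igll1* and *Vpreb1* encode the surrogate light chain that stands in for a light chain in B cell precursors, *Rag1* and *Rag2* the recombinase that joins the variable segments, and *Dntt* an enzyme that adds bases at the joints. B-like cells with a UMI of any of these 5 genes, a split chosen after the data were seen, were 37.7% of B-like cells in NEJ723 (195 cells), 28.8% in NEJ634, 23.4% in NEJ687, 20.4% in NEJ709, 8.78% in NEJ638, 1.31% in NEJ677 and 1.17% in NEJ654. Thinned to 500 UMIs, the share was 20.3% in NEJ634, 20.1% in NEJ723, 15.2% in NEJ687, 9.26% in NEJ709, 4.20% in NEJ638, 0.612% in NEJ677 and 0.260% in NEJ654, against 0 to 1 T/NK-like cell per library. Unthinned, 0 to 3 T/NK-like cells per library had such a UMI, at most 0.980% (NEJ634), and the intervals of B-like and T/NK-like cells overlapped in NEJ654 (0.537 to 2.21% and 0.0922 to 1.30%) and NEJ677. Cells of at least 10% member UMIs were kept apart below.

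*Igkc* was lower in cells with a precursor gene UMI in 7 of 7 libraries, and in none did the counting intervals overlap. The level was 586 against 3310 CPM in NEJ723, 798 against 4863 in NEJ634 and 698 against 3204 in NEJ709. It was 1347 against 4883 in NEJ638 and 1898 against 6702 in NEJ687. The gap was smaller in NEJ677 (4026 against 6470 CPM) and NEJ654 (6415 against 9432), where these cells were few, 15 and 9. In NEJ654 the higher value rested in part on a few cells: without the 10 B-like cells of most *Igkc* UMIs, left out after the data were seen, it was 7848 CPM (7714 to 7984), close to the interval of the cells with a precursor gene UMI (5327 to 7659). In NEJ723, 46.2% of cells with a precursor gene UMI had no light chain UMI at all, against 3.73% of the others. The share was higher with a precursor gene UMI in 6 of 7 libraries, but in NEJ654 it was 0% of 9 cells against 1.19%. Thinned to 500 UMIs, *Igkc* was likewise in fewer of the cells with a precursor gene UMI in 6 libraries (25.6% against 71.1% in NEJ723), and in 100% against 86.6% in NEJ654.

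*Ighd* was lower in 7 of 7 libraries too, for example 43.3 against 795 CPM in NEJ687, though in NEJ654 the intervals overlapped (263, 85.4 to 614 CPM, against 481, 450 to 515). *Ighm* showed no single direction. It was lower in NEJ723 (1604 against 2730 CPM) and NEJ634 (2418 against 3212). In NEJ638 (2586 against 2861), NEJ709 (2808 against 3191) and NEJ687 (2400 against 2471) it was lower with overlapping intervals. Only in NEJ677 (5390 against 2682) and NEJ654 (3523 against 2207), where few cells had a precursor gene UMI, was it higher. *Iglc2* was higher in NEJ677 (3685 against 1853 CPM) and lower in every other library, for example 8.54 against 510 CPM in NEJ723 and 62.4 against 795 in NEJ638.

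**Figure D3:**
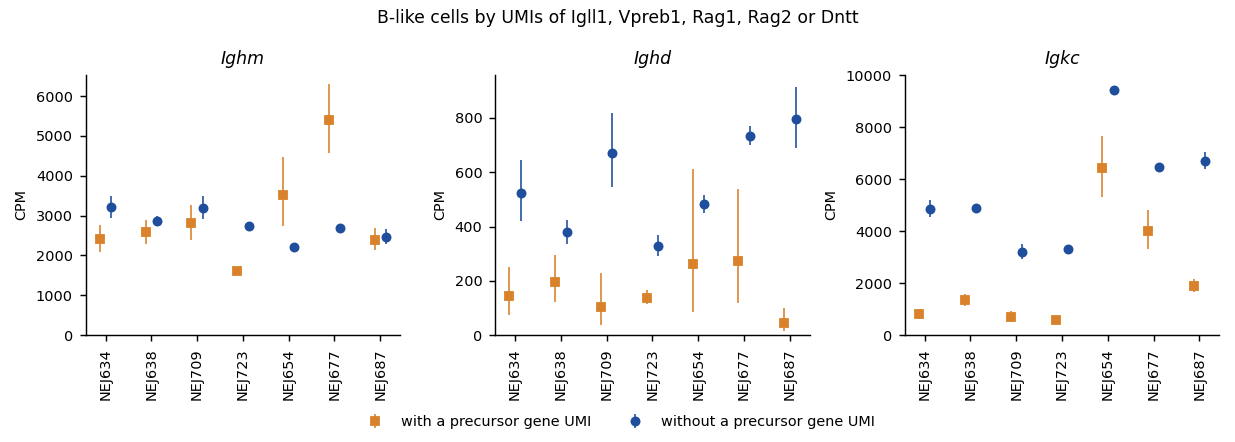
*Ighm*, *Ighd* and *Igkc* in B-like cells with a UMI of *Igll1*, *Vpreb1*, *Rag1*, *Rag2* or *Dntt* (orange squares) and without one (blue circles), by library (CPM, exact 95% Poisson intervals), with cells of at least 10% member UMIs left out. *Igkc* and *Ighd* are lower in the cells with a precursor gene UMI in all 7 libraries. *Ighm* is higher in those cells of NEJ677 and NEJ654 and lower in those of the other libraries.

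Other genes moved with the same split. *Cd74* and *H2-Aa*, of antigen presentation, were 187 against 4128 CPM and 19.2 against 593 CPM in NEJ723, and *Ms4a1* was 79.0 against 695 CPM. In NEJ654 and NEJ677 *Ms4a1* was not lower, at 894 against 716 CPM and 1160 against 728 CPM. *Vpreb3*, which was not used for the split, was higher in all 7 libraries, for example 3068 against 448 CPM in NEJ687, with the smallest gap in NEJ723 (2414 against 1396 CPM), the library with most such cells.

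By list, of 7 genes of the surrogate light chain, recombination and precursor growth (*Il7r* and *Vpreb3* included), 5 to 7 reached 10 CPM over all B-like cells in NEJ634, NEJ638, NEJ709, NEJ723 and NEJ687 and 1 did in NEJ654 and in NEJ677. Of 7 mature B cell genes, 5 reached it in NEJ723, 6 in NEJ634 and 7 in the other libraries. Of 11 plasma cell genes 6 to 10 did. Of all genes with 10 CPM in B-like or other named cells, 72.4% to 85.8% reached it in B-like cells, a share that leaves out genes low in both. With 7 to 11 genes per list, these counts do not set any of the lists above other genes. The median log2 difference between B-like and other named cells was 4.90 to 7.82 for the precursor list in 5 libraries, 0.00 in NEJ654 and 1.62 in NEJ677. It was 3.12 to 5.26 for the mature list and -0.09 to 3.02 for the plasma list, against -0.45 to 0.39 for all genes of at least 10 CPM. *Ms4a1* and *Fcmr* of the mature list were among the leading genes of the B-like cluster, so its difference is in part set by how the cells were named.

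*Ighm* was also present in plasmacytoid dendritic-like cells, a class set by *Siglech*, *Ccr9*, *Tcf4* and similar markers, for which the 5 libraries with at least 20 such cells (34 to 97 cells each) were read. The level was 557 CPM in NEJ638 (462 to 665), 574 in NEJ723 (505 to 649), 553 in NEJ654 (477 to 638), 654 in NEJ677 (581 to 734) and 615 in NEJ687 (502 to 745). All 5 intervals overlapped, and all stood between those of B-like and those of T/NK-like cells of the same library. Of 3 defining B cell markers, these cells held 0 to 2 *Cd79a* UMIs, 0 or 1 *Ms4a1* UMI and 5 to 26 *Cd79b* UMIs per library. Without any cell holding *Cd79a*, *Cd79b* or *Ms4a1* the *Ighm* level was 547 to 669 CPM.

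Thinned to 500 UMIs, *Ighm* was in 19.5% (NEJ638) to 38.2% (NEJ687) of plasmacytoid dendritic-like cells. *Igkc* in the same cells was far more variable, from 35.8 CPM in NEJ687 to 258 CPM in NEJ638, and *Ighd* ran from 8.82 to 34.0 CPM. No *Jchain* UMI was seen in this class in any library. *Igkc* per *Ighm* was 0.0583 (NEJ687) to 0.463 (NEJ638) in these cells, against 0.669 (NEJ723) to 3.51 (NEJ687) in low-UMI barcodes, and the ranges did not overlap.

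T/NK-like cells held *Ighm* at 37.9 CPM in NEJ687, 49.0 in NEJ709, 52.0 in NEJ638, 61.7 in NEJ634, 64.7 in NEJ723, 96.1 in NEJ654 and 120 in NEJ677, and *Igkc* at 0 (NEJ709) to 35.1 CPM (NEJ677). Beside the *Ighm* level of low-UMI barcodes, T/NK-like cells were higher beyond counting error in NEJ723 (low-UMI 26.3 CPM), NEJ654 (47.1) and NEJ677 (54.1). In NEJ634 (64.9), NEJ638 (34.6), NEJ709 (79.3) and NEJ687 (34.2) the counting intervals of both overlapped. Without cells holding *Cd79a*, *Cd79b* or *Ms4a1*, *Ighm* remained at 37.4 to 98.5 CPM and *Igkc* at 0 to 11.7 CPM. *Igkc* per *Ighm* was 0 to 0.362 in T/NK-like cells, 0.669 to 3.51 in low-UMI barcodes and 0.810 to 8.84 in whole B-like pools of the 7 libraries, so that T/NK-like cells did not overlap with either pool. This does not hold for every B-like cell set: the cells with a precursor gene UMI held 2808 CPM of *Ighm* and 698 of *Igkc* in NEJ709, and 2418 and 798 in NEJ634, which puts their ratio within the T/NK-like range. Monocyte-like cells held *Ighm* at 9.75 to 114 CPM and *Igkc* at 1.14 to 17.6 CPM, with a ratio of 0.0333 to 0.619. Neutrophil-like cells held *Ighm* at 16.5 to 82.9 CPM. Conventional dendritic-like cells held *Ighm* at 39.1 to 100.8 CPM and *Igkc* at 0 to 66.8 CPM. Endothelial-like cells held *Ighm* at 0 to 9.81 CPM and macrophage-like cells at 2.41 to 26.3 CPM. Mesenchymal-like cells, named in 2 libraries, held 177.5 CPM in NEJ638 (26 UMIs in 41 cells, 116 to 260.1 CPM), with *Igkc* at 81.9 CPM, and no UMI of either gene in 29 cells of NEJ654.

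**Figure D4:**
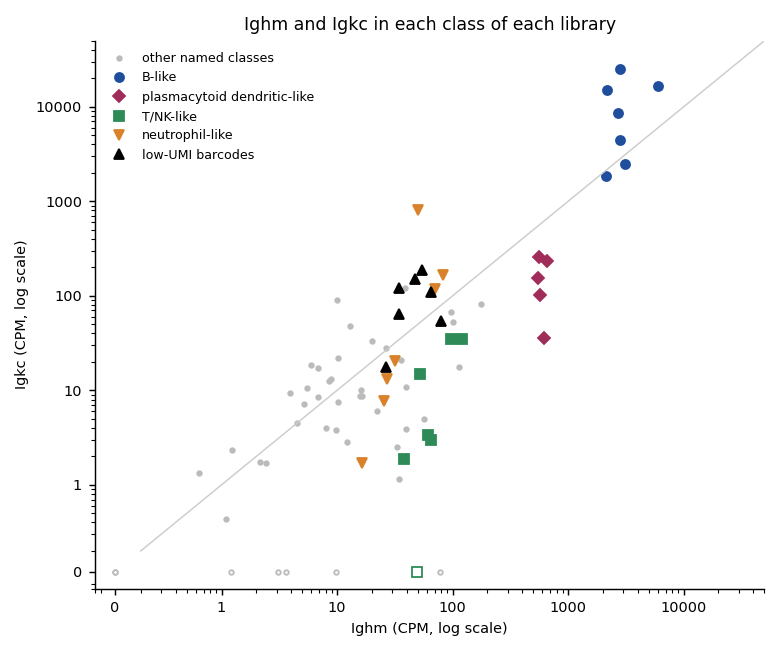
*Ighm* (horizontal) and *Igkc* (vertical) levels of each named class in each library (CPM, both axes on a log scale with 0 drawn apart and open symbols for 0 UMIs), and of low-UMI barcodes, with the line of equal levels. B-like pools lie at the upper right, plasmacytoid dendritic-like pools at 553 to 654 CPM of *Ighm* below the line, T/NK-like pools below the line, and the neutrophil-like pool of NEJ634 at 800 CPM of *Igkc* far above it.

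Cells very rich in immunoglobulin RNA were few. In 23 of the 72669 analysed cells the 10 genes took at least 10% of UMIs: 14 in NEJ634, 4 in NEJ654, 4 in NEJ677, 1 in NEJ687 and 0 in NEJ638, NEJ709 and NEJ723. They held 20.7% of all member UMIs in NEJ677, 33.5% in NEJ654, 51.9% in NEJ634 and 62.4% in NEJ687. The highest analysed cell below the limit was at 9.60% (NEJ654) and the lowest above it at 11.46% (NEJ634). The number depended on the limit, with 36 cells at 5% and 12 at 20%.

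In NEJ654, NEJ677 and NEJ687 all of these cells were B-like, with 3914 to 14750 UMIs. In NEJ634 only 1 was, a cell of 33592 UMIs with 6274 of *Igkc*, 747 of *Igha* and 603 of *Jchain*; the others had 1686 to 3989 UMIs and lay in neutrophil-like (6), unnamed (6) and hepatocyte-lineage-like (1) clusters. The whole neutrophil-like pool of NEJ634 stood at 800 CPM of *Igkc*, 172 of *Ighg2c*, 82.4 of *Ighg2b* and 59.0 of *Jchain*, against 1.69 to 166 CPM of *Igkc* in the neutrophil-like cells of the other libraries. The 6 neutrophil-like cells held 9 to 41 UMIs each of *S100a8*, a neutrophil gene. These counts were not set beside the *S100a8* level of other cells or of low-UMI barcodes. The 6 cells had 0 to 5 *Ighg2b* UMIs, while the whole neutrophil-like pool of NEJ634 had 571, of which the highest cell held 101. In NEJ638, the 118 *Igha* UMIs of the library were all in 1 hepatocyte-lineage-like cell, which also held 220 *Igkc* and 30 *Jchain* UMIs.

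With barcodes that were not analysed as cells, 48 barcodes of at least 200 UMIs passed 10%. The highest heavy chain was *Igha* in 30, *Ighg2b* in 9, *Ighg2c* in 8 and *Ighm* in 1. *Jchain*, itself among the 10 genes that set this limit, was present in 47 of them. *Mzb1*, a plasma cell gene, was in 43, while *Ms4a1*, which plasma cells lose, was in 1. The barcodes that were not called held 208 to 1455 UMIs, so a missing gene says little in them. Of the 11 plasma cell genes, the analysed cells held 2 to 11 in NEJ634, 7 to 11 in NEJ654, 8 to 10 in NEJ677 and 8 in NEJ687. Such counts rise with depth, which ran from 1686 to 33592 UMIs in NEJ634. They were not set against other cells of like depth, so they do not by themselves name these cells. The *Ighm* barcode was the cell of NEJ687, with 1375 *Ighm*, 4322 *Igkc* and 614 *Jchain* UMIs.

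The variable segments told some of these barcodes apart and grouped others. In NEJ634, 20 of 30 had a heavy chain variable segment and they fell in 4 combinations of constant and heavy variable gene. *Igha* with Ighv1-9 and Igkv3-12 was found in 8 barcodes, *Ighg2c* with Ighv2-9-1 and Igkv3-12 in 5 and *Igha* with Ighv2-2 and Igkv6-15 in 4, while the cell of 33592 UMIs had Ighv10-1 and Igkv3-12. In NEJ654 and NEJ677, the analysed cells each had a heavy variable segment of their own, and in NEJ677 1 segment, Ighv5-17 with *Ighg2b*, was shared by the cell of 3914 UMIs and 4 barcodes of 232 to 332 UMIs. The highest light chain segment was Iglv1 in that cell and Igkv4-57-1 in 3 of the 4 barcodes. Outside the largest cells, these segments rest on a few UMIs each.

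**Figure D5:**
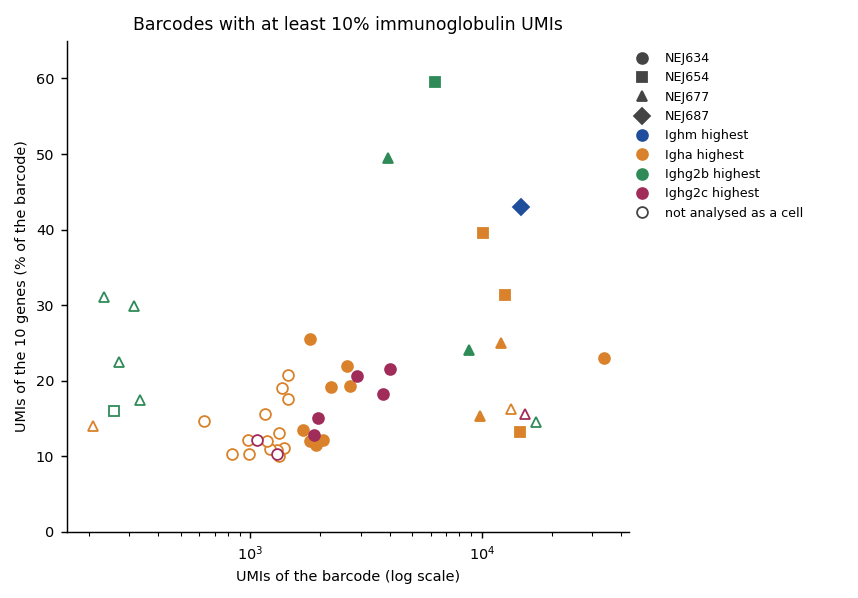
Share of UMIs taken by the 10 genes (%) against the UMIs of the barcode (log scale) for the 48 barcodes of at least 10%, by library (symbol) and highest heavy chain gene (colour), open where the barcode was not analysed as a cell. The barcodes of NEJ634 gather at 633 to 3989 UMIs and 10.0 to 25.5%, apart from 1 of 33592 UMIs.

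Low-UMI barcodes held *Igkc* at 17.6 CPM in NEJ723, 54.2 in NEJ709, 64.6 in NEJ638, 109 in NEJ634, 120 in NEJ687, 150 in NEJ654 and 189 in NEJ677. Part of this lay on barcodes that are B-like cells of another library. In NEJ654, 1070 low-UMI barcodes were B-like cells in NEJ677; they held 0.560% of its low-UMI total and 39.0% of its low-UMI *Igkc* UMIs. The same share was 36.6% for NEJ677 on B-like barcodes of NEJ654, 36.5% and 29.7% for NEJ687 on those of NEJ654 and NEJ677, 37.5% for NEJ709 on those of NEJ723 and 12.2% for NEJ638 on those of NEJ634. For the last pairs the share was lower in the other direction, where 1.17% of low-UMI *Igkc* of NEJ723 was on B-like barcodes of NEJ709, and 0.0357% of that of NEJ634 on those of NEJ638.

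Without barcodes that are cells elsewhere, a setting added after the data were seen, low-UMI *Igkc* fell to 40.8 CPM in NEJ687, 88.4 in NEJ654 and 116 in NEJ677. *Ighg2b* of NEJ687 went from 4.64 to 0.948 CPM, and 39 of 39 member pairs then passed the 10-fold limit. Since part of the low-UMI *Igkc* lay on the barcodes left out, a lower level follows from leaving them out. Among analysed cells, 1699, 63 of them B-like, carried a barcode that was also a cell of another library, a shared barcode being counted in each library. Without them 39 of 41 pairs passed against other cells. In the unnamed cells of NEJ709, *Ighm* (88.8 CPM) and *Igkc* (52.0) were near the low-UMI levels of that library (79.3 and 54.2).

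Among receptors and carriers of antibodies, some were higher and some lower in B-like cells. Of 10 such genes, 3 to 6 per library reached 10 CPM in B-like cells, against the share of 72.4% to 85.8% over all genes given above, and the median log2 difference from other named cells was below 0 in all 7 libraries, down to -3.53 in NEJ638, where that of all genes was -0.41. *Fcmr*, the receptor for IgM, was higher in all 7 libraries, at 94.7 CPM in NEJ723 to 472 CPM in NEJ677 in B-like cells against at most 1.43 CPM in others. *Fcrl5* was also higher in B-like cells of 6 libraries, up to 10.4 CPM in NEJ677 against 0, and had no UMI in either pool of NEJ709. It rested on 27 UMIs in B-like cells of NEJ677 and 13 in NEJ654. In NEJ634, NEJ638, NEJ723 and NEJ687 it rested on 1 or 2 each. *Fcgr2b*, the inhibitory receptor for IgG, was at 40.3 against 22.7 CPM in NEJ723 and 44.99 against 35.14 in NEJ687, and lower in B-like cells of the other 5 libraries. *Fcer1g*, the signalling chain of several Fc receptors, was higher in other named cells of all 7 libraries, for example 719 against 28.0 CPM in NEJ634. *Pigr*, which carries IgA across epithelia, was 73.9 CPM in other cells of NEJ654 and 0.405 in those of NEJ723, and *Fcgrt*, the neonatal Fc receptor, was 385 and 30.2 CPM there. The make-up of these pools differed. NEJ654 had 522 hepatocyte-lineage-like and 1225 endothelial-like cells. NEJ723 had 41 endothelial-like and 2719 erythroid-like cells and no hepatocyte-lineage-like pool. The part of this in the values was not tested. *Pigr* in B-like cells was at 2.27 CPM in NEJ723, on 4 UMIs, and 2.65 CPM in NEJ687, on 1, against 0.405 and 0.808 CPM in other cells.

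Over 72 pools of a class in a library, the genes outside the immunoglobulin loci most like *Igkc* in log2(CPM + 1) were *Cd79b* (r = 0.89), *Fcmr* (0.86) and *Cd79a* (0.85) among 9128 genes. For *Ighm* they were *Siglecg* (0.85), *Aff3* (0.85) and *Dgkd* (0.84). *Jchain* had no gene above 0.64 (*Fcmr*, *Fcer2a*, *Eaf2*), and *Igha* none above 0.56 (*Fcer2a*). The B-like pools were named from *Cd79a*, *Cd79b* and *Ms4a1*, so genes of B-like cells stand high in this order by construction. Pools of a library also share its free RNA and depth, so these values are descriptions.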

How the data were processed

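Single-cell libraries were made with the 10x Genomics 3′ v3.1 kit. The authors deposited raw UMI counts per gene for all barcodes; the submitters' processing notes name Cell Ranger 6.0, the file headers version 4, and the study states that intronic reads were counted. Depth was as given above.

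Barcodes were called by UMI count and by a test of their composition against ranks 45000 to 90000 (FDR 0.01, at most 20000 candidates, a limit reached in NEJ634, NEJ709 and NEJ723), and kept above 500 UMIs and at or below 20% mitochondrial UMIs. Doublets were removed as the highest Scrublet scores at 0.8% per 1000 cells, because the caller's own threshold marked under 0.07% of cells. Cells were clustered with scanpy 1.11.5 (2000 genes without immunoglobulin genes, 40 components, Leiden resolution 1) and named with "-like" from 122 markers of 16 classes. Counts were summed per class and library. Calling and the fold rule were tested on simulated data. The members and gene lists were chosen with earlier results of these data known. All 10 members were named in every library. Alternatives covered calling, filters, the definition of B-like cells, CPM totals, thinning and limits.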

Additional observations from a re-analysis of the deposited data

Results flagged for a closer look

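In NEJ634, 16 barcodes with at least 10% immunoglobulin UMIs were not called as cells, and so lie outside the pools of cells. The library has 14 analysed cells of this kind. The 16 barcodes held 633 to 1455 UMIs each, and *Igha* or *Ighg2c* was their highest heavy chain. Barcodes of NEJ634 between 210 and 952 UMIs served as its low-UMI set, so the shallowest of the 16, such as that of 633 UMIs, belong to that set.

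In NEJ677, 3 cells of 13337, 15395 and 17060 UMIs with 14.5% to 16.2% immunoglobulin UMIs were removed with the highest doublet scores. Their highest heavy chains were *Igha*, *Ighg2c* and *Ighg2b*, and each had a heavy variable segment that no other barcode of this kind had. With no doublet removal, 26 in place of 23 cells passed the 10% limit.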

How the results depend on the processing

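The counts of members above low-UMI barcodes and above other cells stayed within 1.5 times of 38 and 39 under all 12 planned and all 4 and 3 added alternatives. This limit takes no account of the number of pairs that reached 10 CPM, which changed between settings. At most 43 pairs reached 10 CPM in any setting, so the upper side of the limit could not be passed. Leaving out all of NEJ634 still counted as within it, at 31 of 32 pairs above low-UMI barcodes. Staying within the limit therefore says little about stability. Cells of at least 10% immunoglobulin UMIs numbered 39 with every barcode over 500 UMIs, 11 with the percentile rule alone, 36 at a 5% limit, 12 at a 20% limit and 9 without NEJ634, which alone holds 14 of the 23. The lambda share was 29.9% with a 95% majority of at least 20 UMIs and 14.4% with a simple majority (chosen after seeing the data). The switched share was 1.46% with the percentile rule alone, 0.511% at resolution 2, 2.23% with a 95% majority of at least 10 UMIs and 0.508% without immunoglobulin-rich cells (chosen after seeing the data); the cause of the other differences was not tested. Of 70 levels over all cells of a library, 41 stayed within counting error without the highest barcode and 17 without the highest 10. No paired analysis was possible because the labels give no groups and no shared replicate numbers. With every barcode over 500 UMIs, cells removed as doublets in the analysis above stayed removed, and no cluster was plasmacytoid dendritic-like. Few UMIs limit *Ighg1*, *Ighg2c* and *Ighg3*, at most 6 per library in B-like cells. *Ighg2c* over the cells of NEJ677 was 15.2 CPM with no doublet removal, against 0.251.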
